A study of Homo sapiens with 6 samples.

Results

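The genes described here encode subunits of RNA polymerases I, II and III and factors that act with RNA polymerases I and III. These factors include the repressor MAF1 and TTF1, which stops RNA polymerase I, beside those that bring the enzymes to their templates. All of the genes were chosen by gene symbol in the authors' annotation table, on chromosomes 1 to 22 and X. The rule took the POLR1, POLR2 and POLR3 symbols with a letter from A to L, which leaves out POLR2M. It also took the GTF3C genes, and UBTF, RRN3, TTF1, TAF1A to TAF1D, BRF1, BRF2, BDP1, MAF1 and GTF3A. The rule found 49 genes with 48 symbols among the 63152 genes counted. It left out 3 further entries on patches and alternate contigs. No measured value entered the choice.

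RNA was sequenced from A549 cells, an epithelial line from a human lung adenocarcinoma, harvested at 72 hours from cells reverse transfected with 10 nM siRNA. The test group was given a siGENOME pool against RPS19, a protein of the small ribosomal subunit (siRPS19), and the reference group an ON-TARGETplus non-targeting siRNA (siOTP), so the siRNA product line differed along with the target. Each group had 3 biological replicates of the same line, and same-numbered replicates of the groups carry the same date in the labels. The model is a transient knockdown in 1 established line, and the libraries measure transcripts, not protein or rRNA synthesis.

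The libraries held 20814110 to 23889372 counts on genes. Levels below are in CPM, the counts of a gene relative to the size of its library, scaled with TMM factors. RPS19 had 27124 to 30731 counts in the siOTP libraries and 830 to 1159 in the siRPS19 libraries, which matches the labels. All 6 markers chosen for the line (KRT8, KRT18, CDH1, EPCAM, AKR1B10 and ALDH1A1) were detected. Their summed level was 15022 to 15945 CPM in siOTP and 9057 to 9911 CPM in siRPS19. ALDH1A1 and AKR1B10 made up most of it, at means of 10511 and 3171 CPM in siOTP, where CDH1 stood at 30.6 and EPCAM at 4.98 CPM. CDH1 rose 1.63-fold and the other 5 fell. Of the markers of other cells, CD3E and HBB had no count in any library, PTPRC stayed at or under 0.0828 CPM, and VWF and CDH5 together at or under 0.304 CPM. The fibroblast markers COL1A1, DCN and PDGFRA summed to 32.4 to 40.3 CPM in siOTP and 17.8 to 22.6 CPM in siRPS19, with COL1A1 at 35.7 and 16.0 CPM and PDGFRA, which rose 6.14-fold, at 0.549 and 3.42 CPM (group means). The share of entries outside genes was 3.39% to 3.85% in the siOTP libraries and 5.13% to 6.36% in the siRPS19 libraries, and the part of this difference in the results was not tested.

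RNA polymerase I (Pol I) makes the precursor of the large ribosomal RNAs in the nucleolus, RNA polymerase II (Pol II) makes mRNA and most small nuclear RNA, and RNA polymerase III (Pol III) makes 5S rRNA, tRNA and other short RNAs. Each enzyme has a catalytic centre built from its own pair of large subunits, and all of them share a set of small subunits, while a further pair is common to Pol I and Pol III. Ribosome production therefore draws on all of them, and in growing cells the activity of Pol I and Pol III is known to follow nutrient, growth-factor and stress signalling.

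Most of the polymerase genes were lower after RPS19 siRNA. Of the 49 genes, 48 passed the filter on low counts, and of these 37 fell, 4 rose and 7 did not pass edgeR's quasi-likelihood test at an adjusted p of 0.05. The 4 that rose were POLR3GL, BRF1, BRF2 and POLR2J3, and without siOTP replicate 1, 2 or 3 only POLR3GL and BRF1 were called higher. The 7 that did not pass were POLR1A, TAF1C, POLR2H, POLR2G, POLR2J2, BDP1 and GTF3C3. Over all 17171 genes tested, 38.9% fell, 39.5% rose and 78.3% were called in either direction, so a call by itself was common in this comparison. The median log2 fold change (siRPS19 minus siOTP) was -0.47 over the 48 polymerase genes and 0.02 over all genes tested. All 3 siRPS19 libraries lay below all 3 siOTP libraries for 37 members and above for 4, where 39.6% and 40.1% of all genes tested did so, 79.7% in all. Falls of at least 2-fold were seen in 7 members (POLR3G, POLR3K, POLR1E, POLR2C, TAF1D, POLR2E and UBTF) and a rise of that size in POLR3GL, beside 12.4% and 18.5% of all genes tested. These are bulk libraries on a relative scale, so fewer cells with a transcript and less of it per cell cannot be told apart.

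**Figure D1:**
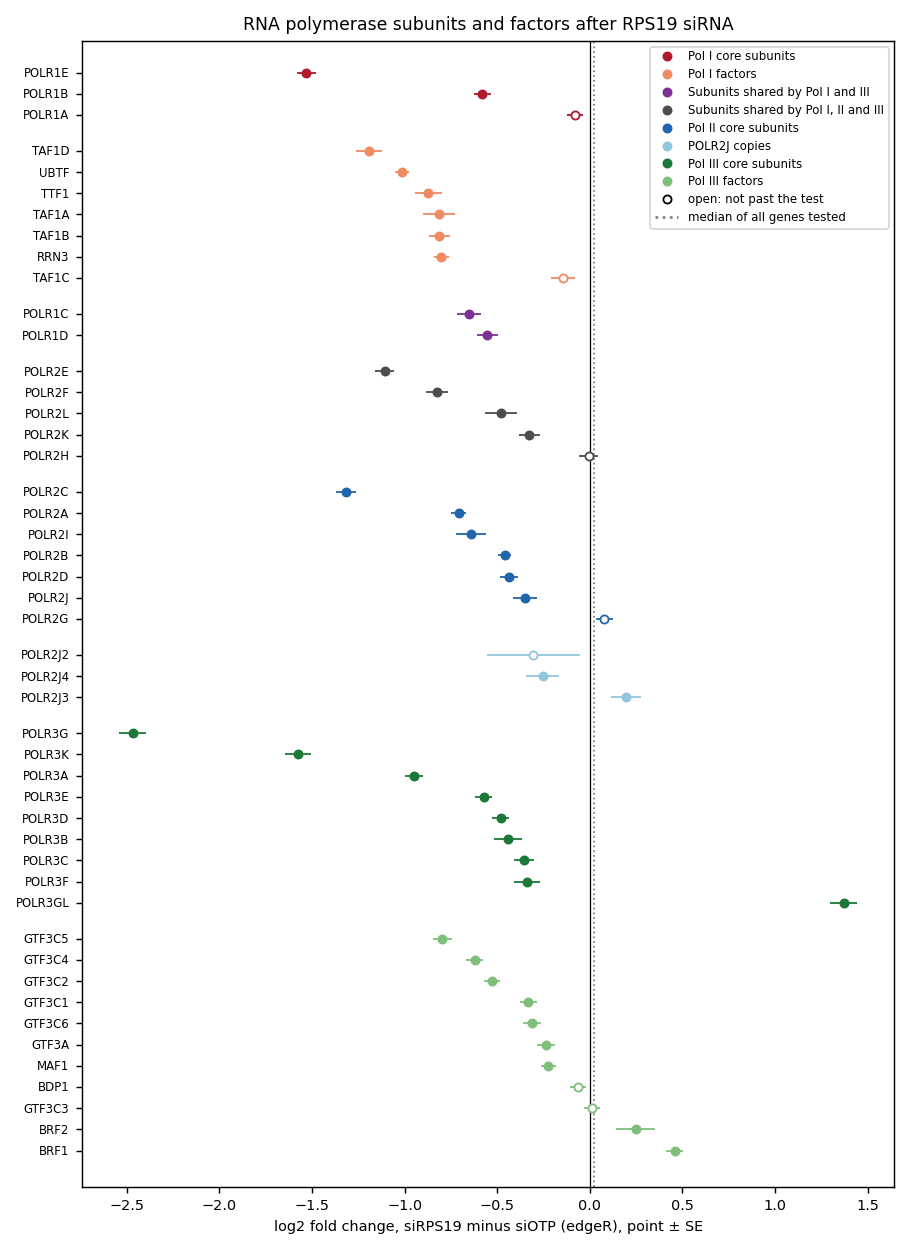
Log2 fold change of 47 of the 48 tested genes (x axis, siRPS19 minus siOTP, point and standard error), by role. Filled points passed the test, open points did not, and the dotted line is the median of all genes tested (0.02). Most points lie left of it, POLR3G at -2.47 is the lowest and POLR3GL at 1.37 the highest. When library totals replaced the TMM factors, the points of the called genes POLR2J4, GTF3A and MAF1 lie above 0.

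The direction is relative to the scaling. TMM factors, which assume that most genes do not change, were 0.903 to 0.907 in siOTP and 1.09 to 1.11 in siRPS19. With library totals in their place the median over all genes tested moved to 0.31, and 25 members fell and 10 rose, beside 27.6% and 53.1% of all genes. Of the members that had fallen, 12 were then not called. Among them POLR2J4, GTF3A and MAF1 had turned above 0, while POLR2L, POLR2K, POLR2J, POLR3B, POLR3C, POLR3F, GTF3C1 and GTF3C6 had not. The 10 genes of Pol I and of the pair it shares with Pol III that had fallen (POLR1E, POLR1B, UBTF, RRN3, TTF1, TAF1A, TAF1B, TAF1D, POLR1C and POLR1D) also fell with library totals.

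The subunits that belong to Pol I alone did not move together. POLR1A and POLR1B encode the pair of large subunits that form its catalytic centre, and POLR1E (PAF53) encodes part of a dissociable module that helps initiation and elongation. POLR1E (ENSG00000137054, chromosome 9, 37485932 to 37503694, hg19) was at 74.9, 78.4 and 71.9 CPM in the siOTP libraries and at 26.2, 26.2 and 25.6 CPM in the siRPS19 libraries. The groups were far apart, and the log2 fold change was -1.53 ± 0.05 (SE, edgeR adjusted p = 1.64e-16), a 2.89-fold fall. POLR1B (ENSG00000125630, chromosome 2, 113299492 to 113334635) was at 94.8, 88.8 and 89.8 CPM in siOTP and at 63.8, 58.1 and 60.8 CPM in siRPS19. That is a 1.5-fold fall without overlap (log2 fold change -0.58 ± 0.05 SE, edgeR adjusted p = 3.92e-10). POLR1A (ENSG00000068654, chromosome 2, 86247339 to 86333278) was at 217, 200 and 226 CPM in siOTP and 204, 198 and 205 CPM in siRPS19, and the groups overlapped (log2 fold change -0.08 ± 0.04 SE, edgeR adjusted p = 0.0976). Its sign depended on the scaling, at 0.21 with library totals (adjusted p = 0.000356), and in the authors' deposited table, which scales by totals, its RPKM was 14.3 for siOTP and 16.48 for siRPS19. Without siOTP replicate 2, POLR1A passed as a fall (-0.15, edgeR adjusted p = 0.00438).

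Of the 7 factors of Pol I, 6 fell and none rose, with a median log2 fold change of -0.81. With library totals the same 6 fell and TAF1C rose, with a median of -0.53. UBTF, the HMG-box protein that coats active ribosomal gene repeats (ENSG00000108312, chromosome 17, 42282401 to 42298994, hg19), was at 234, 234 and 233 CPM in siOTP and 118, 115 and 115 CPM in siRPS19. Replicates differed by less than 2 CPM in SD in both groups, and UBTF fell 2.02-fold (log2 fold change -1.01 ± 0.04 SE, edgeR adjusted p = 7.56e-16). RRN3 (ENSG00000085721, chromosome 16, 15153879 to 15188174), the TIF-IA protein that makes Pol I competent to initiate, was at 103, 103 and 104 CPM in siOTP and 57.7, 60.8 and 59.5 CPM in siRPS19. It fell 1.74-fold (log2 fold change -0.80 ± 0.04 SE, edgeR adjusted p = 3.28e-13), and 25.0% of its 50-base transcript windows also occur in other genes, among them RRN3P2 and RRN3P1. The selectivity factor SL1, which places Pol I on the ribosomal promoter together with TBP, is built from the TAF1A to TAF1D proteins.

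Among these SL1 genes TAF1D (ENSG00000166012, chromosome 11, 93463114 to 93517557, hg19) moved most. It was at 73.8, 75.6 and 68.0 CPM in siOTP and 35.8, 28.8 and 30.5 CPM in siRPS19, a 2.28-fold fall (log2 fold change -1.19 ± 0.07 SE, edgeR adjusted p = 1.74e-10). The locus overlaps 12 annotated genes, most of them small nucleolar RNAs in its introns. TAF1A fell from 14.8 ± 0.539 to 8.41 ± 0.320 CPM and TAF1B from 54.0 ± 1.23 to 30.8 ± 2.51 CPM (SD, n = 3 each), both 1.76-fold. TAF1C stood at 51.4, 49.8 and 48.6 CPM in siOTP and 48.8, 39.5 and 46.9 CPM in siRPS19, with 1 siRPS19 library between the siOTP values, and did not pass (log2 fold change -0.15 ± 0.07 SE, edgeR adjusted p = 0.0503). In edgeR its adjusted p was 0.0214 with the replicate number as a block, and 0.0353, 0.0122 and 0.0445 without siOTP replicate 3, siRPS19 replicate 1 or siRPS19 replicate 3, while with library totals TAF1C rose by 0.14. TTF1, the protein that stops Pol I at the end of the transcribed region, went from 29.2 ± 2.63 CPM in siOTP to 15.9 ± 0.907 CPM in siRPS19 (SD, n = 3 each), a 1.83-fold fall.

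**Figure D2:**
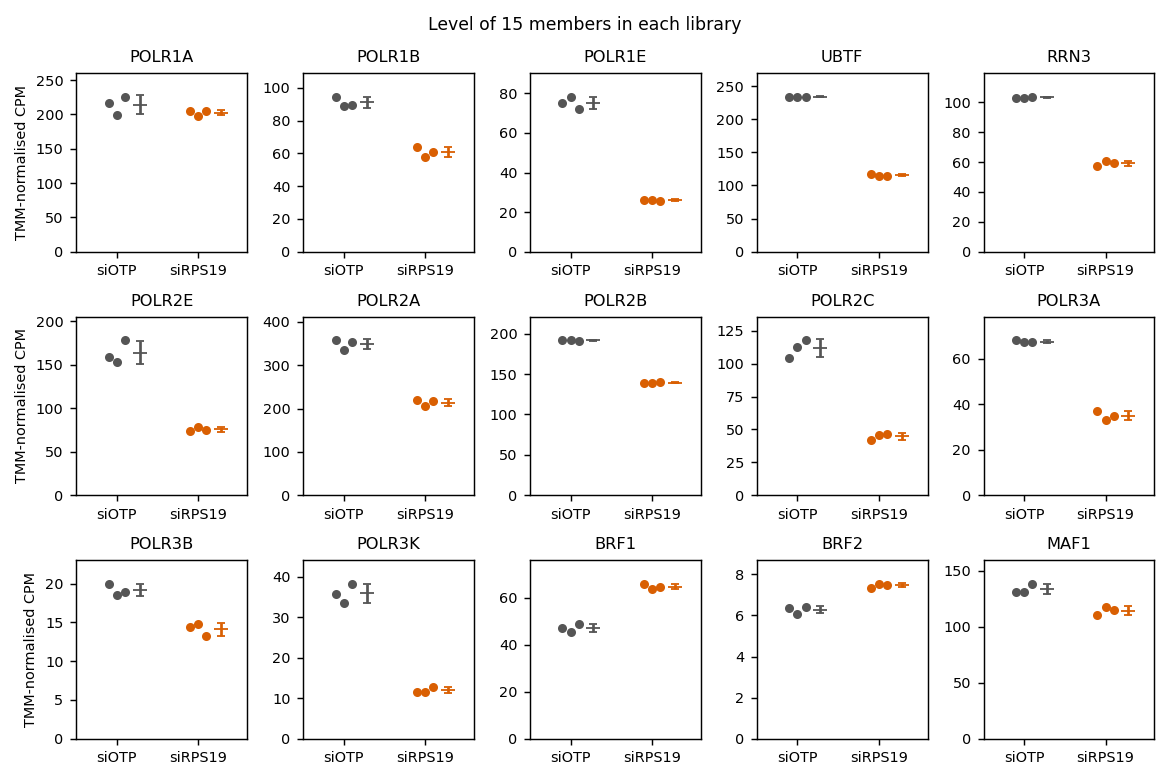
TMM-normalised CPM (y axis, from 0) of 15 genes in each library, with 1 point per library and the mean and SD of 3 beside them. The siOTP and siRPS19 points do not overlap in any panel but POLR1A, and BRF1 and BRF2 are the panels with higher siRPS19 points.

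Both subunits that Pol I shares with Pol III were lower. They are POLR1C and POLR1D, a pair related to bacterial alpha subunits around which both enzymes assemble. POLR1C (ENSG00000171453, chromosome 6, 43477440 to 43497323, hg19) was at 27.8, 28.3 and 31.0 CPM in siOTP and 18.9, 18.2 and 18.4 CPM in siRPS19. All siRPS19 values lay below the siOTP values (log2 fold change -0.65 ± 0.06 SE, edgeR adjusted p = 1.24e-08). POLR1D went from 72.3 ± 2.65 CPM in siOTP to 49.3 ± 4.14 CPM in siRPS19 (SD, n = 3 each), a 1.47-fold fall.

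Among the 5 subunits common to all of the enzymes, 4 fell and POLR2H did not pass, with a median of -0.48 that stayed below 0 with library totals (-0.19). POLR2E (ENSG00000099817, chromosome 19, 1086594 to 1095598, hg19), a subunit of the lower jaw, was at 160, 153 and 179 CPM in siOTP and 73.6, 78.8 and 75.6 CPM in siRPS19. It fell 2.16-fold (log2 fold change -1.11 ± 0.05 SE, edgeR adjusted p = 6.69e-13). POLR2F, a subunit of the enzyme base that steadies the largest subunit, fell 1.77-fold from 41.4 ± 1.09 to 23.4 ± 1.40 CPM. The small zinc-binding subunit genes POLR2L and POLR2K fell less, 1.40-fold (205 ± 23 to 147 ± 9.88 CPM) and 1.25-fold (50.3 ± 0.781 to 40.2 ± 3.21 CPM; SD, n = 3 each), and neither was called with library totals. POLR2L overlaps CD151 on the other strand, and 14.73% of its transcript windows occur in that gene. POLR2H was at 43.9, 47.4 and 43.3 CPM in siOTP and 43.7, 44.0 and 46.2 CPM in siRPS19. Its groups overlapped (log2 fold change -0.01 ± 0.05 SE, edgeR adjusted p = 0.911), although with library totals POLR2H rose by 0.28 on the log2 scale. Its transcript level thus differed from that of POLR2E, a partner in the same enzymes, by over 1 log2 unit in its change, and this difference was not tested by itself.

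Of the 7 subunits that belong to Pol II alone, 6 fell and POLR2G did not pass, with a median of -0.46 (-0.17 with library totals). POLR2A, the largest subunit, whose repeated tail is phosphorylated during the transcription cycle (ENSG00000181222, chromosome 17, 7387685 to 7417933, hg19), was at 358, 335 and 354 CPM in siOTP and 220, 205 and 216 CPM in siRPS19. It fell 1.63-fold (log2 fold change -0.71 ± 0.04 SE, edgeR adjusted p = 1.75e-12). POLR2B (ENSG00000047315, chromosome 4, 57843888 to 57897334), the second-largest subunit, was at 192, 192 and 191 CPM in siOTP and 139, 139 and 140 CPM in siRPS19. The replicates of POLR2B lay within about 1 CPM of each other, and it fell 1.38-fold (log2 fold change -0.46 ± 0.04 SE, edgeR adjusted p = 2.80e-10). POLR2C (ENSG00000102978, chromosome 16, 57496299 to 57505922), an alpha-like assembly subunit, fell most. It was at 105, 113 and 118 CPM in siOTP and 42.0, 46.1 and 46.7 CPM in siRPS19, a 2.49-fold fall (log2 fold change -1.32 ± 0.05 SE, edgeR adjusted p = 4.00e-15).

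Among the remaining Pol II subunits POLR2I fell 1.56-fold (22.4 ± 2.20 to 14.4 ± 0.825 CPM), but 64.7% of its transcript windows are shared with other annotated genes, among them TBCB on the other strand. POLR2D and POLR2G encode the stalk, a pair of subunits that can leave the enzyme. POLR2D was at 59.7, 60.4 and 59.9 CPM in siOTP and 42.4, 46.1 and 44.8 CPM in siRPS19, a 1.35-fold fall. POLR2G was at 81.5, 85.1 and 81.5 CPM in siOTP and 83.6, 88.4 and 90.2 CPM in siRPS19, overlapped, and did not pass (log2 fold change 0.08 ± 0.04 SE, edgeR adjusted p = 0.103). Without siRPS19 replicate 1 it passed as a rise (0.12, edgeR adjusted p = 0.0235), as it did with library totals (0.37). POLR2J, the partner of POLR2C in assembly, stood at 43.4 ± 3.83 CPM in siOTP and 34.0 ± 2.06 CPM in siRPS19 (SD, n = 3 each), a 1.27-fold fall that was not called with library totals.

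POLR2J has copies on chromosome 7 that share part of its sequence. The first 50 coding bases, 5′ to 3′ on the minus strand of GRCh38 in GENCODE v29 transcripts, are shown because they are identical in POLR2J and its copies POLR2J2 and POLR2J3:
POLR2J, chr7:102478811-102478860: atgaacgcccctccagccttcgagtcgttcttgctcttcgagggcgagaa
POLR2J2, chr7:102671552-102671601: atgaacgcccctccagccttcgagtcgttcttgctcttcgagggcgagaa
POLR2J3, chr7:102572472-102572521: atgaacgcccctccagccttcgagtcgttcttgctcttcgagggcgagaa
A read of 50 bases from this stretch fits all of them. Over the whole transcripts, 36.9% of the 50-base windows of POLR2J, 97.6% of those of POLR2J2, 79.96% of those of POLR2J3 and 35.4% of those of POLR2J4 occur in another gene. Their counts are therefore uncertain. POLR2J4 (ENSG00000214783, chromosome 7, 43980494 to 44058774, hg19) was at 11.5, 11.6 and 11.3 CPM in siOTP and 10.3, 9.19 and 9.35 CPM in siRPS19 (log2 fold change -0.25 ± 0.09 SE, edgeR adjusted p = 0.0142). POLR2J3 (ENSG00000168255, chromosome 7, 102178365 to 102213103) was at 14.5, 15.6 and 15.1 CPM in siOTP and 18.9, 15.8 and 16.9 CPM in siRPS19, the lowest siRPS19 value close to the highest siOTP value (log2 fold change 0.20 ± 0.08 SE, edgeR adjusted p = 0.0313). Both calls were weak: POLR2J4 was not called without siRPS19 replicate 3 (adjusted p = 0.0551) and turned to 0.03 with library totals, and POLR2J3 was not called in DESeq2 (adjusted p = 0.203) or, in edgeR, without siOTP replicate 1, 2 or 3 (0.151, 0.0517 and 0.0742) or siRPS19 replicate 1 (0.146). POLR2J2 held 19 to 34 counts a library and did not pass, and its other gene ID, ENSG00000267645, had no count and was not tested.

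The subunits of Pol III alone held the largest fall and the largest rise of all members. Of 10, 9 fell and POLR3GL rose, with a median of -0.46 (-0.18 with library totals). POLR3A and POLR3B form the catalytic centre. POLR3A (ENSG00000148606, chromosome 10, 79734907 to 79789303, hg19) was at 68.3, 67.3 and 67.3 CPM in siOTP and 36.9, 33.0 and 35 CPM in siRPS19, a 1.93-fold fall (log2 fold change -0.95 ± 0.05 SE, edgeR adjusted p = 4.00e-13). POLR3B (ENSG00000013503, chromosome 12, 106751436 to 106903976) was at 20.0, 18.6 and 18.9 CPM in siOTP and 14.3, 14.8 and 13.2 CPM in siRPS19. That is a 1.36-fold fall (log2 fold change -0.44 ± 0.07 SE, edgeR adjusted p = 1.98e-05), which was not called with library totals (adjusted p = 0.0645). The largest subunits of the 3 enzymes thus stood at log2 fold changes of -0.08 (POLR1A), -0.71 (POLR2A) and -0.95 (POLR3A), and the second-largest at -0.58 (POLR1B), -0.46 (POLR2B) and -0.44 (POLR3B).

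Outside the catalytic pair, POLR3K, which takes part in RNA cleavage and termination by Pol III, stood at 35.9 ± 2.39 CPM in siOTP and 12 ± 0.722 CPM in siRPS19, a 2.98-fold fall (SD, n = 3 each, edgeR adjusted p = 3.05e-14). POLR3K overlaps SNRNP25 on the other strand, and 11.15% of its transcript windows occur in other genes. The heterodimer of POLR3D and POLR3E, which resembles the POLR1E module of Pol I, fell 1.40-fold (65.5 ± 0.957 to 46.9 ± 1.28 CPM) and 1.49-fold (69.4 ± 1.59 to 46.6 ± 2.18 CPM). POLR3C and POLR3F sit with POLR3G or POLR3GL in the subcomplex that opens promoters, and fell 1.28-fold (36.2 ± 0.910 to 28.2 ± 1.02 CPM) and 1.26-fold (24.3 ± 1.5 to 19.2 ± 0.964 CPM; SD, n = 3 each). Neither POLR3C nor POLR3F was called with library totals.

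POLR3G and POLR3GL moved in opposite directions. They encode alternative forms of the same subunit, so that a Pol III molecule holds one or the other. POLR3G is the form known from stem cells and tumour cells and POLR3GL the form found in most differentiated tissues. The start of each coding sequence is shown, since counts of such close relatives are safe only if reads can tell them apart. The stretches are 99 bases, 5′ to 3′, from GENCODE v29 transcripts on GRCh38, and capitals mark bases that differ from, or have no counterpart in, the other gene in a global alignment:
POLR3G, chr5:90485568-90485666, plus strand: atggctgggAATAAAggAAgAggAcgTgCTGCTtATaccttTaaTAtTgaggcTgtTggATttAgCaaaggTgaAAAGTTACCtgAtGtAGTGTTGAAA
POLR3GL, chr1:145974866-145974964, plus strand: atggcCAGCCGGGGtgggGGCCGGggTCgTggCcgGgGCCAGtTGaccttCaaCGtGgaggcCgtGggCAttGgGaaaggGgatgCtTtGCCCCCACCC
In these stretches 59 of 108 aligned columns differ. Over the whole coding sequences, of 669 and 654 bases, 57.6% of columns are identical, and no 50-base window of a POLR3G transcript occurs in POLR3GL.

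POLR3G (ENSG00000113356, chromosome 5, 89767565 to 89810370, hg19) had 1093, 952 and 974 counts in siOTP and 266, 199 and 201 counts in siRPS19. On the CPM scale it was at 52.4, 48.2 and 50.2 in siOTP and 10.2, 8.63 and 8.32 in siRPS19, a 5.53-fold fall (log2 fold change -2.47 ± 0.07 SE, edgeR adjusted p = 2.40e-17). POLR3GL (ENSG00000121851, chromosome 1, 145456236 to 145470388) had 227, 264 and 232 counts in siOTP and 808, 719 and 759 counts in siRPS19. Its level was 10.9, 13.4 and 12 CPM in siOTP and 31.1, 31.2 and 31.4 CPM in siRPS19, a 2.59-fold rise (log2 fold change 1.37 ± 0.07 SE, edgeR adjusted p = 4.76e-13). Neither pair of groups came near to overlapping. Across the 17 alternatives fitted for all genes, the log2 fold change ranged from -2.56 to -2.18 for POLR3G and from 1.28 to 1.66 for POLR3GL. POLR3G overlaps MBLAC2, and 7.70% of its 50-base transcript windows occur in other genes. POLR3GL overlaps no other gene of the authors' table, but 12.1% of its windows also occur in the GENCODE v29 gene AC243547.3, and the part of that gene in its counts was not tested.

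The share of POLR3G in the pair was compared per kilobase of transcript, with the lengths in the authors' table. It was 68.3%, 61.8% and 65.3% in the siOTP libraries and 12.9%, 11.0% and 10.6% in the siRPS19 libraries. The means were 65.1% ± 3.28 and 11.5% ± 1.19 (SD, n = 3 each), a difference of -53.6 percentage points (exact two-sided permutation p = 0.1, the smallest that 3 against 3 can give). That test did not use the shared dates. For 3 pairs the smallest exact sign-flip p is 0.25. Leaving out any library kept the difference between -55.3 and -52.0 points. The pair's summed level per kilobase was 19.2 ± 0.179 CPM in siOTP and 19.6 ± 0.186 CPM in siRPS19. With the longest GENCODE v29 transcript as length, chosen after seeing the data, the sums were 22.9 ± 0.157 and 22.3 ± 0.233 CPM per kilobase. With TMM factors, the sign of that small difference thus depended on the length used. The summed CPM without length went from 62.4 ± 0.873 to 40.3 ± 0.893. All these sums also depend on the scaling, with TMM factors of 0.903 to 0.907 in siOTP and 1.09 to 1.11 in siRPS19. Library totals would set siRPS19 higher relative to siOTP, and the sums were not made on that scale. The authors' deposited table lists POLR3G at a group RPKM of 11.31 for siOTP and 2.5 for siRPS19, and POLR3GL at 6.06 and 19.07.

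**Figure D3:**
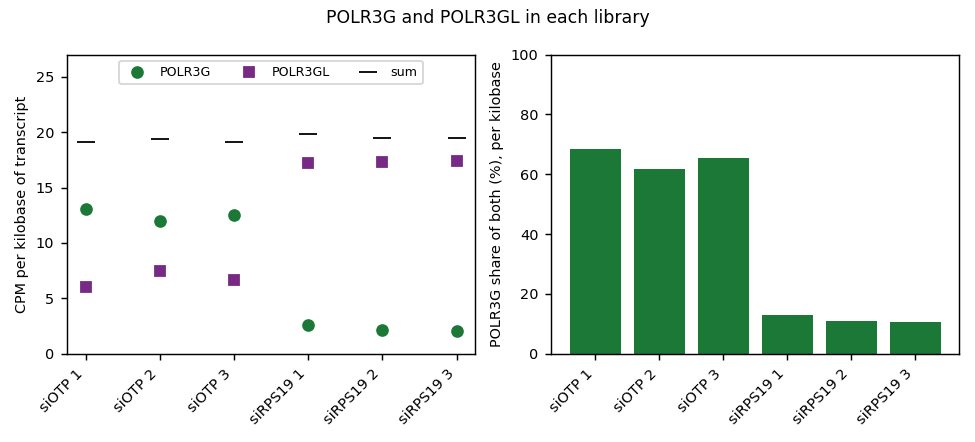
Left, level per kilobase of transcript (y axis, CPM per kilobase) of POLR3G, POLR3GL and their sum in each library, and right, the share of POLR3G in the pair (y axis, percent, bars from 0). POLR3G lies above POLR3GL in the 3 siOTP libraries, at shares of 61.8% to 68.3%, and below it in the 3 siRPS19 libraries, at 10.6% to 12.9%. The sum, drawn with TMM factors only, stays between 19.1 and 19.8 CPM per kilobase.

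The 250 bases before the start of POLR3GL, the Pol III subunit that rose, and of POLR3K, the subunit with the next largest fall after POLR3G, are given from RefSeq (GRCh38.p14), 5′ to 3′ on the strand of the gene. Capitals mark matches to any of 5 motifs, searched on both strands, none of which contains another. The E-box was searched as CACGTG, a site for MYC and related factors. The GC box was searched as GGGCGG, bound by SP1 and its relatives. The ETS site was searched as CCGGAAGT, the core bound by ETS family factors. The TATA box was searched as TATAAA, the site of TBP. The CCAAT box, bound by NF-Y, was searched as its name. The sequences are:
POLR3GL, chr1:145964440-145964689, plus strand: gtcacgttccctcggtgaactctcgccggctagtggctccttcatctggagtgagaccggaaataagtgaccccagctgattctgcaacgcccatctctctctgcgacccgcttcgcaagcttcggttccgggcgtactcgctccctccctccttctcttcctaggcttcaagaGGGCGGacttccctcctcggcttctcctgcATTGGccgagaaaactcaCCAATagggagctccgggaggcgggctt
POLR3K, chr16:53609-53858, minus strand: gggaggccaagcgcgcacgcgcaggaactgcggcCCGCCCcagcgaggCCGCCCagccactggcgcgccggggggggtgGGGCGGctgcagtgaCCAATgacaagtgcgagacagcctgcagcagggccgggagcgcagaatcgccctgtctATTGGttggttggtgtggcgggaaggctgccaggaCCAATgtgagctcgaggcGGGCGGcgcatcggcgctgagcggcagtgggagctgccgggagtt
The POLR3GL stretch has 1 GC box and 2 CCAAT boxes, and the POLR3K stretch 4 GC boxes and 3 CCAAT boxes. Over the 50 start sites that RefSeq lists for 36 of the 48 symbols, a GC box occurs in 62.0%, a CCAAT box in 26.0%, an E-box in 10.0%, an ETS site in 12% and a TATA box in 2.00%. Among all 34961 promoters of the same length these motifs occur in 42.7%, 32.0%, 6.35%, 3.43% and 10.7%. The median GC content was 61.8% for the members and 58.4% for all promoters. These are letter matches only, and several genes enter with more than 1 start.

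Factors of Pol III were split, and the sign of their median depended on the scaling: 7 of 11 fell, 2 rose and 2 did not pass, with a median log2 fold change of -0.24 that turned to 0.05 with library totals. TFIIIC, which binds the internal promoters of tRNA genes, is encoded by GTF3C1 to GTF3C6. GTF3C5 (ENSG00000148308, chromosome 9, 135906076 to 135933890, hg19) was at 97.2, 91.1 and 97.1 CPM in siOTP and 51.4, 55.0 and 58.1 CPM in siRPS19, a 1.74-fold fall (log2 fold change -0.80 ± 0.05 SE, edgeR adjusted p = 5.84e-12). GTF3C4 fell 1.54-fold (125 ± 7.06 to 81.0 ± 2.40 CPM), GTF3C2 1.44-fold, GTF3C1 1.26-fold and GTF3C6 1.24-fold, the last 2 not with library totals. GTF3C3 was at 84.2, 85.9 and 83.7 CPM in siOTP and 87.7, 83.3 and 84.8 CPM in siRPS19, with overlapping groups (log2 fold change 0.01 ± 0.04 SE, edgeR adjusted p = 0.800). GTF3A, the zinc-finger protein TFIIIA that serves 5S rRNA genes alone, fell 1.18-fold from 80.3 ± 2.84 to 68.2 ± 3.23 CPM with TMM factors and turned to 0.05 on the log2 scale with library totals.

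Of the genes of TFIIIB, the factor that recruits the enzyme, BRF1, BRF2 and BDP1 were not called lower with TMM factors, while TBP, its remaining subunit, was (log2 fold change -0.50, edgeR adjusted p = 1.84e-06). BRF1 belongs to the form used at tRNA and 5S genes, BRF2 to the form used at U6 and related genes, and BDP1 to both. BRF1 (ENSG00000185024, chromosome 14, 105675623 to 105781926, hg19) was at 47.1, 45.7 and 49.0 CPM in siOTP and 66.1, 64.0 and 64.5 CPM in siRPS19. It rose 1.37-fold, and the groups did not overlap (log2 fold change 0.46 ± 0.05 SE, edgeR adjusted p = 1.62e-08). BRF1 lies across PACS2 and BTBD6 on the other strand, and 6.3% of its transcript windows occur in other genes. The part of those genes in its counts was not tested. BRF2 was at 6.38, 6.08 and 6.39 CPM in siOTP and 7.35, 7.55 and 7.49 CPM in siRPS19 (log2 fold change 0.25 ± 0.10 SE, edgeR adjusted p = 0.0378). This call was lost in DESeq2 (adjusted p = 0.248) and, in edgeR, without siOTP replicate 1, 2 or 3 (0.0941, 0.137 and 0.0766) or siRPS19 replicate 2 or 3 (0.0757 and 0.0634), and 55.5% of the transcript windows of BRF2 are shared with the overlapping gene GPR124. BDP1 was at 91.0, 86.2 and 91.5 CPM in siOTP and 89.1, 85.2 and 82.8 CPM in siRPS19 and did not pass (log2 fold change -0.06 ± 0.04 SE, edgeR adjusted p = 0.194), but passed as a fall without siOTP replicate 2 (-0.11, edgeR adjusted p = 0.0488) and as a rise with library totals (0.22). MAF1 (ENSG00000179632, chromosome 8, 145159402 to 145162514), the repressor that holds Pol III off its templates under stress, was at 131, 131 and 139 CPM in siOTP and 111, 118 and 115 CPM in siRPS19. It fell 1.17-fold with TMM factors (log2 fold change -0.22 ± 0.04 SE, edgeR adjusted p = 4.96e-05) and was at 0.06 with library totals (edgeR adjusted p = 0.200).

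Set side by side, the 3 enzymes differed little in their medians. Counting every subunit of the rule, shared ones included, 8 of 10 Pol I subunits fell (median -0.57), 10 of 12 Pol II subunits fell (median -0.47), and 15 of 17 Pol III subunits fell and 1 rose (median -0.48). The shared genes enter more than 1 of these counts. Within each enzyme the subunits spread further than the medians did, from -1.53 to -0.01 for Pol I, from -1.32 to 0.08 for Pol II and from -2.47 to 1.37 for Pol III.

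Averaged within each library, the 3 core subunits of Pol I in the rule were at 6.80 to 6.85 log2 CPM in siOTP and 6.07 to 6.13 in siRPS19. The mean difference was -0.73, from genes at -1.53 (POLR1E), -0.58 (POLR1B) and -0.08 (POLR1A). The 7 core subunits of Pol II were at 6.39 to 6.48 and 5.85 to 5.92, a difference of -0.55. The 10 core subunits of Pol III were at 5.18 to 5.22 and 4.54 to 4.62, a difference of -0.62. The groups of libraries did not overlap for any of the 3 enzymes. The factors of Pol I differed by -0.81 (5.79 to 5.88 against 4.99 to 5.07 log2 CPM) and those of Pol III by -0.22 (6.15 to 6.20 against 5.96 to 5.97). A test between the enzymes was not made, since genes are not replicates.

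**Figure D4:**
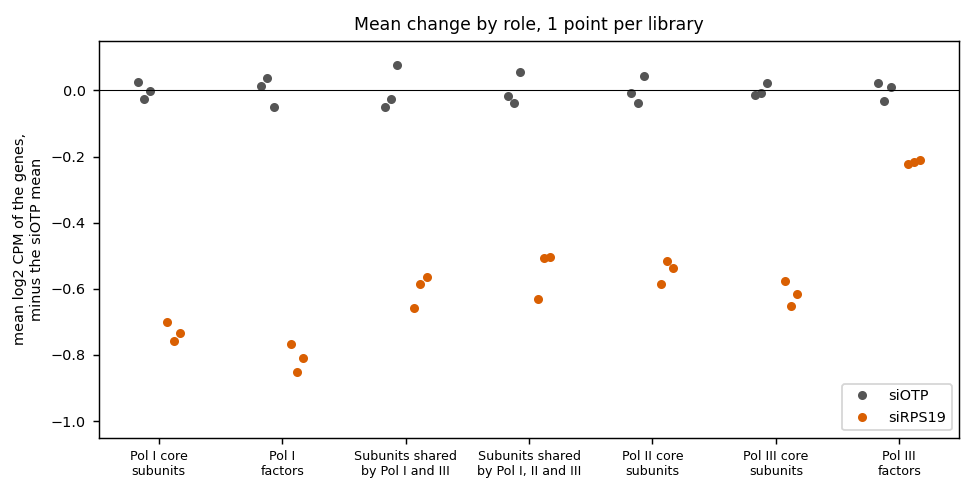
Mean log2 CPM of the genes of each role in each library, minus the siOTP mean of that role (y axis), with 1 point per library. The 3 siRPS19 points lie below the 3 siOTP points in each of the 7 roles drawn (the POLR2J copies are not drawn), closest to 0 for the Pol III factors (mean difference -0.22), whose median change turned above 0 with library totals, and farthest for the Pol I factors (-0.81).

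Levels per kilobase of transcript differed between the enzymes in the control cells. In siOTP the median core subunit stood at 15.8 CPM per kilobase for Pol I, 32.5 for Pol II and 8.31 for Pol III. With the longest GENCODE v29 transcript as length these were 18.0, 46.6 and 11.1, and the medians of the authors' RPKM were 14.3, 29.3 and 7.505, in the same order. Among the largest subunits, POLR2A was at 41.8 ± 1.42, POLR1A at 15.8 ± 0.999 and POLR3A at 8.33 ± 0.0692 CPM per kilobase (SD, n = 3 each), and these did not come near each other. The highest siOTP level of all members was that of POLR2L, at 180 ± 20.2 CPM per kilobase, followed by MAF1 at 56.2 ± 1.82. The part of CD151, which POLR2L overlaps, in the POLR2L level was not tested. Lengths in the authors' table exceed the longest GENCODE v29 transcript by over 1.5 times for 14 members, most for BRF1 (27011 bases), so levels per kilobase of those genes are understated.

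Genes that work with the polymerases were followed in 8 lists with 101 matched genes outside the rule. Of the 99 tested, 74 fell and 10 rose, beside 38.9% and 39.5% of all genes tested, and these shares also stand beside the count of each list below. The median log2 fold change was -0.47, the same as for the members and beside 0.02 for all genes. With library totals, 52 fell and 27 rose, beside 27.6% and 53.1% of all genes. The median was then -0.18, and each list median below 0 stayed below 0. Among 5 polymerase subunits whose symbols the rule does not take, CD3EAP, the partner of POLR1E, stood at 21.9 ± 0.750 CPM in siOTP and 6.52 ± 0.218 CPM in siRPS19 (SD, n = 3 each), a 3.35-fold fall. TWISTNB, a Pol I stalk subunit, fell 1.19-fold with TMM factors and stood at 0.04 on the log2 scale with library totals. CRCP, POLR2M and ZNRD1 did not pass with TMM factors, at 0.07, 0.10 and 0.12 on the log2 scale. All of these were called higher with library totals, at 0.35, 0.39 and 0.40, and also with upper-quartile factors. The transcripts of both partners of that Pol I module were thus lower by over 2-fold. Of 7 other genes of Pol I transcription, 6 fell and 1 rose with TMM factors (median -0.80). SIRT7, among these falls, was called higher with library totals, at 0.15 on the log2 scale, and KDM2B was then not called. NOLC1, a nucleolar phosphoprotein, fell 3.08-fold (525 ± 13.5 to 171 ± 0.241 CPM), PTRF, known also as cavin-1 of caveolae, 3.07-fold (1049 ± 26.8 to 341 ± 11.5 CPM), and BAZ2A, of the complex that silences ribosomal gene repeats, rose 1.08-fold (166 ± 5.66 to 179 ± 7.61 CPM; SD, n = 3 each).

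Initiation factors of Pol II followed the same direction with TMM factors. Of 16 genes for TBP and the TFIID subunits, 12 fell and 2 rose (median -0.49), TAF6 falling 2.41-fold and TAF4B 2.35-fold, while TAF3, which reads a histone mark of active promoters, rose 1.81-fold from 24.3 ± 0.135 to 43.9 ± 1.04 CPM and TAF1 1.23-fold. TBP itself, which serves all 3 enzymes and is named outside the rule, after its value was seen, was at 22.8, 21.2 and 21.6 CPM in siOTP and 14.8, 15.8 and 15.9 CPM in siRPS19. Of 16 tested genes for the other general factors, 14 fell and none rose with TMM factors (median -0.42). Among the falls were the TFIIA gene GTF2A1 (1.87-fold) and the TFIIF gene GTF2F1 (1.73-fold). With library totals GTF2H1 and GTF2B were called higher, at 0.25 and 0.30 on the log2 scale. GTF2E1, ERCC2, MNAT1, CCNH, ERCC3 and GTF2H5 were then not called, and the other falls of this list kept their call. Among the TFIID genes, library totals called TAF7, TAF10 and TAF12 higher and left TAF9B and TAF11 uncalled. Genes for pausing and elongation were less uniform, with 16 of 25 lower and 5 higher with TMM factors (median -0.49). The elongation factor TFIIS shows this within 1 family: TCEA1 fell 4.28-fold (288 ± 9.22 to 67.2 ± 1.6 CPM) and its paralog TCEA2 rose 2.63-fold (18.5 ± 1.20 to 48.7 ± 2.70 CPM). SSRP1, of the histone chaperone FACT, fell 3.19-fold, and ELL rose 1.55-fold (SD, n = 3 each). In this list RTF1, SUPT5H, CDK9 and SUPT6H were called higher with library totals, and NELFE and SUPT4H1 were not called.

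Of 8 genes for snRNA promoters and other Pol III factors, 7 fell and none rose with TMM factors (median -0.57), led by the SNAPc subunit genes SNAPC1 (2.36-fold) and SNAPC2 (2.00-fold). With library totals SNAPC3 was called higher, at 0.30 on the log2 scale, and SNAPC4 and SNAPC5 were not called. Of 16 genes for assembling polymerases in the cytoplasm and bringing them into the nucleus, 12 fell and 1 rose (median -0.41). RUVBL2, an ATPase of the R2TP cochaperone, fell 2.34-fold from 301 ± 14.1 to 129 ± 2.75 CPM, the GTPase gene GPN3 2.26-fold, and PIH1D1, another R2TP gene, rose 1.34-fold. RPAP1, RPAP2 and WDR92 of this list were called higher with library totals, and PDRG1, UXT, PFDN6 and URI1 were not called. In mitochondria, transcribed by an unrelated polymerase, 5 of 6 genes fell and 1 rose (median -0.56). The polymerase gene POLRMT fell 1.86-fold from 96.0 ± 9.71 to 51.5 ± 1.88 CPM and TFB2M 1.92-fold, while TFB1M rose 1.20-fold (SD, n = 3 each). TEFM and MTERF, also among the falls, were not called with library totals.

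**Figure D5:**
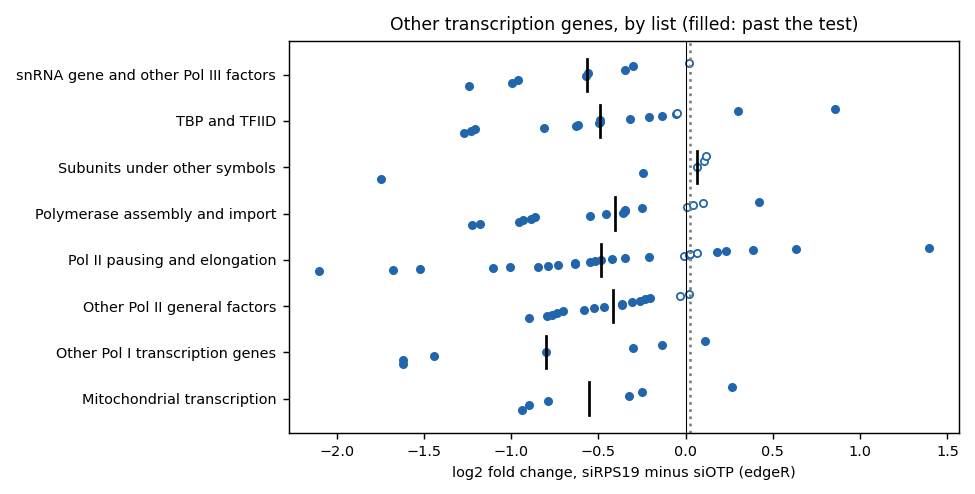
Log2 fold change (x axis, siRPS19 minus siOTP) of the 99 tested genes of 8 lists outside the rule, 1 point per gene, filled where the test was passed, with a bar at each list's median. The dotted line is the median of all genes tested (0.02). Medians lie between -0.80 and -0.41 except for the 5 subunits whose symbols the rule does not take, drawn as subunits under other symbols (0.07), where CD3EAP at -1.75 stands apart.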

How the data were processed

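Per the submitters' processing notes, TopHat2 (2.0.8b), HTSeq, DESeq and R (3.0.2) were used with build hg19. The sources used here give no counting mode, annotation release or strand setting. Without a stated strand setting, reads of genes on opposite strands cannot be told apart, and 32 of the 49 members overlap a gene on the other strand. The authors deposited whole-number read counts per gene and library, and an RPKM value per gene and group, scaled by transcript length and group total. A further 6 columns of counts name no sample and were not used, and each equals the counts of 1 library. The 5 entries that name no gene were left out, with reads outside genes at 3.39% to 6.36% and ambiguous reads at 7.50% to 8.24% of all entries.

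Counts were fitted over all genes with edgeR 4.0.16 in R 4.3.3: filterByExpr (minimum count 10, minimum total 15), TMM factors, robust quasi-likelihood test, Benjamini-Hochberg adjustment over 17171 genes and a threshold of 0.05. The standard error (SE) is the absolute log2 fold change over the square root of F. CPM values are TMM-normalised, and levels per kilobase use the transcript length in the authors' table. The test was checked on simulated counts in which a small set of genes was changed, up or down at random. In these data most genes were called, so that check does not bear on the choice of scaling. A gene of the rule, which enters the counts, and a marker gene are not reported here. The alternatives comprised DESeq2 1.42.0, voom in limma 3.58.1, other scalings (3) and filters (2), a replicate block and leaving out libraries. Scalings of the lists outside the rule, and another transcript length, were chosen after seeing the data. Shared windows are 50-base stretches of GENCODE v29 transcripts that also occur in another gene.

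The members, gene lists and tests were chosen with earlier results of these data known. Values in every library are given for the largest rise and fall past the test in each role and for 12 set genes (POLR1A, POLR1B, POLR2A, POLR2B, POLR3A, POLR3B, UBTF, RRN3, BRF1, MAF1, POLR3G and POLR3GL). Library values of POLR2D, POLR2G, POLR2H, TAF1C, GTF3C3, BDP1 and BRF2 were added after they were seen. Of each list outside the rule, up to 2 falls and 2 rises with a mean of at least 1 CPM could be named. Replicates of a group differed by 4.40 to 16.6 chi-square units per degree of freedom, more than reads drawn again from the same library would. This measure cannot tell whether libraries came from the same RNA or culture, since such repeats can also differ by more than read sampling. Same-numbered libraries share a date in the labels, which pairs them, and their deviations from the group means correlated across genes at 0.0548, -0.0954 and 0.0452.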

Additional observations from a re-analysis of the deposited data

How the results depend on the processing

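The counts of members rested mainly on the scaling. Upper-quartile factors gave 9 members higher and 34 lower, beside 8187 and 5505 of the 17171 genes tested. Library totals gave 10 and 25, beside 9114 and 4734. The medians over all genes tested were 0.20 and 0.31. DESeq2 gave 2 higher and 37 lower, beside 6190 and 6424 of all genes. A fit without the filter gave 2 and 40, beside 7315 and 7327. Leaving out libraries gave 2 to 4 higher and 37 to 39 lower, beside 6259 to 6850 and 6210 to 6673 of all genes. In the order upper-quartile factors, then library totals, the median log2 fold change was -0.41 and -0.30 for Pol I core subunits, -0.64 and -0.53 for Pol I factors, -0.43 and -0.32 for the pair shared by Pol I and III, -0.31 and -0.19 for the subunits shared by all, -0.29 and -0.17 for Pol II core subunits, -0.081 and 0.032 for POLR2J copies, -0.29 and -0.18 for Pol III core subunits, and -0.063 and 0.051 for Pol III factors. POLR1A turned to 0.092 and 0.21, and with library totals POLR2J4 turned to 0.032 and MAF1 to 0.063. These shifts follow from the scale, which moved all genes. Without the filter the median was -0.53 for the subunits shared by all and -0.29 for Pol III factors, and with a mean of at least 1 CPM -0.43 and -0.19. When libraries were left out, the subunits shared by all ranged from -0.61 to -0.41, POLR2J copies from -0.29 to -0.15, and Pol III factors from -0.29 to -0.19. The share of POLR3G in raw counts differed by -58.2 points. With the replicate number as a block, 6783 genes rose and 6701 fell, among them 4 and 38 members, and TAF1C (adjusted p = 0.0214) was the only member whose call changed. Under all 17 alternatives, 28 of 48 tested members kept their call. The widest standard error of a member was that of POLR2J2, which held 19 to 34 counts a library.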
